A study of Mus musculus with 6 samples.

Results

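The genes of DNA replication licensing and synthesis were followed in libraries labelled as endothelial cells, sorted out of B16F0 melanomas. The 43 genes were taken by symbol from the 24421 symbols counted per library, and all 43 were present. They comprise the 6 subunits of the origin recognition complex, the loading factors Cdc6 and Cdt1, the 6 subunits of the MCM helicase, Cdc45 and the 4 GINS subunits, the clamp Pcna with its 5 loader subunits, 9 polymerase and primase subunits, 4 enzymes of nucleotide supply, the flap nuclease Fen1 with the ligase Lig1, and the 3 subunits of the single-strand binding protein RPA. Both groups were C57BL/6 mice with subcutaneous B16F0 tumours, a transplantable melanoma line, grown for 17 days. One group received 15C4, an antibody that blocks the secreted glycoprotein LRG1, and the other control IgG, each at 50 mg/kg every 3 days. Each group has 3 libraries of PCR-amplified cDNA, named here by group and number, and triplets of values below are in the order 1, 2, 3. The labels give neither the animals behind each library nor the surface markers of the sort, so each p-value below measures library-to-library spread, part of which may be technical.

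A replication origin is licensed in G1 phase, when the origin recognition complex, CDC6 and CDT1 load the MCM helicase onto DNA. In S phase CDC45 and GINS join MCM to form the active helicase, PCNA tethers the polymerases, and FEN1 and LIG1 join the Okazaki fragments of the lagging strand. Many of these genes are transcribed under E2F factors as cells leave quiescence, and most endothelial cells of resting vessels do not divide, while those of growing tumour vessels can.

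Total counts per library ranged from 5175600 to 19572202, of which the 43 genes held between 13837 and 37059. The library 15C4 3 had no counts for 1537 of the 11144 tested genes, and the other libraries lacked 31 to 507. The 11 melanocyte markers summed to between 23821 and 29070 CPM (counts scaled to the same library total of 1000000). The sum of the 22 pan-endothelial markers was lowest in IgG 3, with 258 CPM, and ran from 1664 to 3532 CPM in the other libraries. Cdh5, which encodes VE-cadherin, was at 46.3 CPM in IgG 3, and the endothelial transcription factor gene Erg was at 0 there. The melanocyte sum exceeded the endothelial sum in all 6 libraries, which goes against the label of a purely endothelial sample, and the libraries are called here by their treatment only. Lymphatic markers reached 1061 CPM in IgG 2 (at most 39.2 CPM elsewhere). The T and NK cell markers reached 601 CPM in IgG 1 and 220.5 CPM in 15C4 1 (at most 21.6 CPM elsewhere), although Cd3e was at 0 in 5 of 6 libraries. In 15C4 1, Ccl5 alone was at 214 CPM, and no other gene of that list exceeded 1.90 CPM. In IgG 1, Gzma, Ccl5 and Nkg7 were at 178, 124 and 105 CPM, and Ncr1 and Klrd1 at 52.2 and 29.6 CPM. Of the T cell genes in that library, Cd3g was at 10.2 CPM, while Cd3e, Cd3d, Cd8a, Cd8b1 and Cd4 were at most at 0.966 CPM. The macrophage and monocyte markers reached 201 CPM in IgG 1 (at most 75.3 CPM elsewhere). There Ptprc was at 86.9, Tyrobp and Fcer1g at 42.9 and Ccr2 at 15.5 CPM. Csf1r, C1qa, C1qb, C1qc, Mrc1 and Adgre1 were at most at 0.773 CPM there. C1qc and Mrc1 were highest in 15C4 2, at 19.7 and 13.5 CPM. The fibroblast markers reached 153 CPM in 15C4 3 and 94.5 CPM in IgG 1 (at most 4.56 CPM elsewhere). In 15C4 3, Lum alone was at 151 CPM, and no other gene of that list exceeded 0.782 CPM. In IgG 1, Col3a1, Col1a2 and Lum were at 25.5, 24.3 and 22.4 CPM. The B cell markers were all at 0 in 4 libraries. The part of these markers in the results below was not tested. In bulk libraries of this kind, fewer dividing cells and less RNA per cell cannot be told apart, and which cells supplied the replication transcripts was not tested.

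In none of the replication genes did 15C4 and IgG differ past the threshold. With the quasi-likelihood test of edgeR, 0 of the 42 tested genes and 0 of all 11144 tested genes (0%) had an adjusted p under 0.05, and the adjusted p of every tested replication gene rounded to 1.00. DESeq2 called 0 of the 41 with an adjusted p (0.252% of all genes) and limma-voom 0 (0% of all genes). At an unadjusted p under 0.05, edgeR gave 5 replication genes (2.58% of all tested genes, 288 in number), DESeq2 gave 7 (4.15%) and limma-voom 5 (4.14%). The 5 of edgeR were Mcm6, Pola1, Pole and Tk1, lower in 15C4 (1.33% of all genes were lower at this threshold), and Orc5, higher (1.26%).

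The fold changes lay mostly on 1 side. Of the 42 tested replication genes, 29 (69.0%) had a log2 fold change (15C4 over IgG) below 0, against 49.3% of all tested genes. The median over the 42 was -0.42, against 0.01 over all tested genes. Per library, the median log2 CPM of the 42 genes, scaled by TMM factors, was 4.96, 4.47 and 4.83 in 15C4. In IgG it was 5.28, 5.29 and 4.82, so the groups overlapped through IgG 3. With 1 library left out, the lowest share below 0 was 61.9%, without IgG 1 (49.1% of all genes). The highest was 72.1%, without IgG 3 (48.4% of all genes), and it was 62.8% without 15C4 1 (53.3%). With 15C4 3 and IgG 3 both left out, an alternative chosen after seeing the data, 34 of 43 were below 0 against 49.0% of all genes. With 1 library left out, the median log2 fold change was lowest without 15C4 1, at -0.56 (-0.07 for all genes). It was highest without 15C4 2, at -0.18 (-0.04 for all genes), and was -0.19 without IgG 2 (0.03 for all genes). The direction of 26 genes, 21 lower and 5 higher, was the same in every alternative that gave a value.

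The summed level of the 43 genes did not separate the groups. It was 1947, 1893 and 3020 CPM in the 15C4 libraries and 2674, 2595 and 2157 CPM in the IgG libraries. The highest sum was thus in 15C4 3, in which 12 genes had their highest value of the 6 libraries and 15 their lowest. The 15 leave out Orc1 and Cdc6, which were at 0 in 15C4 2 and 15C4 3 alike. IgG 2 held the highest value of 17 genes. The library 15C4 3 also had 5 replication genes at 0, where a count of 0 allows up to 0.469 CPM, while every IgG library had counts for all 43.

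**Figure D1:**
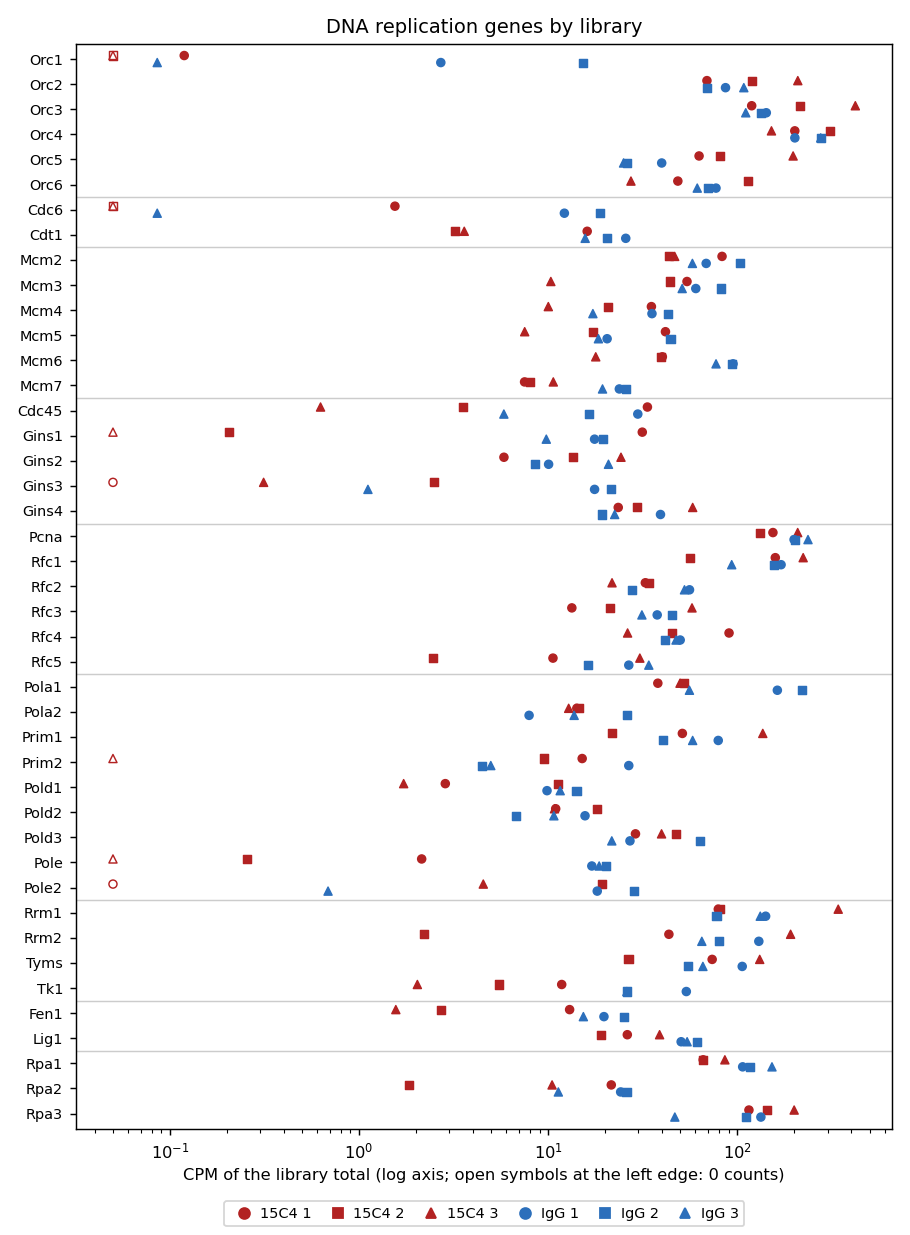
CPM of the 43 DNA replication genes (rows, in the order of their roles) in each of the 6 libraries, on a log axis, with 15C4 in red and IgG in blue. The 3 red symbols of Mcm6, Mcm7, Pola1, Pole, Tk1, Fen1, Lig1 and Rpa1 all lie left of the blue ones, and those of Orc5 lie right of them.

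For 8 of the 43 genes all 15C4 libraries were below all IgG libraries in CPM, and for 1 gene all were above. Of all tested genes, 6.64% were separated downwards and 2.88% upwards. The 8 were Mcm6, Mcm7, Pola1, Pole, Tk1, Fen1, Lig1 and Rpa1, and the 1 was Orc5. For 3 libraries against 3, the smallest p of an exact two-sided permutation test of a single gene is 0.1. With fewer libraries both the count and the share of all genes were larger. The count was 9 without IgG 1 (10.7% of all genes in that setting), which has the highest T and NK cell sum, and 9 without IgG 2 (11.1%), which has the highest lymphatic sum. It was 12 without 15C4 2 (14.2%) and 12 without 15C4 3 (11.6%). It became 17 without 15C4 1 (17.8%), 15 without IgG 3, which has the lowest endothelial sum (12.3%), and 19 of 43 without both 15C4 3 and IgG 3 (19.0%).

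The promoters of these genes were read for E2F sites, since E2F factors are known to control many of them. RefSeq start sites on GRCm38.p6 were available for 36 of the 43 genes, each as a window of 250 bases before and 50 bases after the start. The words TTTGGCGC, TTTCCCGC, TTTCGCGC and TTTGCCGC were searched on both strands. They occurred in 15 of the 36 genes (41.7%), against 2.60% of all 27025 genes with such windows, and in 34.1% of the replication gene windows against 2.26% of all 32851 windows. The CCAAT box (CCAAT, both strands) was in 61.1% of the 36 genes and 41.1% of all genes, and the CHR words TTTGAA and TTCGAA in 19.4% and 21.7%. A match is a description of the letters and not evidence of binding.

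The 250 bases before the start site are shown for 3 genes that were separated downwards and hold an E2F word, for Orc1, which does too and had 1 count in all of 15C4, and for Orc5, the gene separated upwards, whose window holds none. Capitals mark E2F words on either strand, and 2 words overlap in the first capital run of Mcm6. The sequences are from RefSeq on GRCm38.p6 and read 5′ to 3′ in the direction of the gene: Mcm6 at chr1:128359706-128359955, minus strand, Mcm7 at chr5:138171884-138172133, minus strand, Pola1 at chrX:93632156-93632405, minus strand, Orc1 at chr4:108579204-108579453, plus strand, and Orc5 at chr5:22550339-22550588, minus strand.
Mcm6: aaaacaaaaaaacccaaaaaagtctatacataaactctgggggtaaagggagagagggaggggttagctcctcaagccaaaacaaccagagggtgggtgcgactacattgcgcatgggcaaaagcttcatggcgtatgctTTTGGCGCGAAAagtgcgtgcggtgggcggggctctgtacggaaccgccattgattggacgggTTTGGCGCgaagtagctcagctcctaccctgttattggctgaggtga
Mcm7: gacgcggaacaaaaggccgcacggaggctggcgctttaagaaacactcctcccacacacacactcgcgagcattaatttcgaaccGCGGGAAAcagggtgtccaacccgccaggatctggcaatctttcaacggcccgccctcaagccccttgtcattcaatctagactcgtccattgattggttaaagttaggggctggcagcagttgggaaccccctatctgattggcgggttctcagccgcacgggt
Pola1: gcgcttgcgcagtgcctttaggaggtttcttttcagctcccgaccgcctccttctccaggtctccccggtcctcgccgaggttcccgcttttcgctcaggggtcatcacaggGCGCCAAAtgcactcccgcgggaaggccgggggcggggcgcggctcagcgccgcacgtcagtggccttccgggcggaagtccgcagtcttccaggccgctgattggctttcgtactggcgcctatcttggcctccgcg
Orc1: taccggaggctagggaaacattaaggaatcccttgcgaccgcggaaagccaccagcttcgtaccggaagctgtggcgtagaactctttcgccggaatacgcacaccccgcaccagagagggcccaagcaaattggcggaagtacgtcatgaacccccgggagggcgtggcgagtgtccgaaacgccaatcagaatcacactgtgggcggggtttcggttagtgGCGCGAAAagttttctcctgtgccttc
Orc5: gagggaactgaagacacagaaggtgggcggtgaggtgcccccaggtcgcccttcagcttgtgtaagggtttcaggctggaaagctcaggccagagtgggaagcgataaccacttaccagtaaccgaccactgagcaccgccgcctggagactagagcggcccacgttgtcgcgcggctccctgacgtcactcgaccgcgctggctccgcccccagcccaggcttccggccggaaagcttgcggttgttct
Mcm6 has a pair of E2F positions before its start, and Mcm7, Pola1 and Orc1 have 1 each in the part shown. Mcm7 also has another RefSeq window, from a different start site, which holds no E2F word and is not shown. Lig1, also separated downwards, has an E2F word only after the start, in 1 of its 3 windows, and is not shown.

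Of the 14 tested genes with an E2F word, 12 had a log2 fold change below 0, with a median of -0.97. Of the 21 tested genes whose windows held none, 12 were below 0, with a median of -0.05. This difference was not tested, because the genes are not independent replicates. Tk1, Fen1 and Rpa1, all separated downwards, are in the second set, and Orc3, with a log2 fold change of 1.11, is in the first. Pole, which was also separated downwards, has no window and is in neither. For the CCAAT box the medians were -0.26 for 21 tested genes with it and -0.77 for 14 without, the opposite order. For the CHR words they were -0.49 for 7 tested genes with a word and -0.19 for 28 without. These splits were not tested either.

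**Figure D2:**
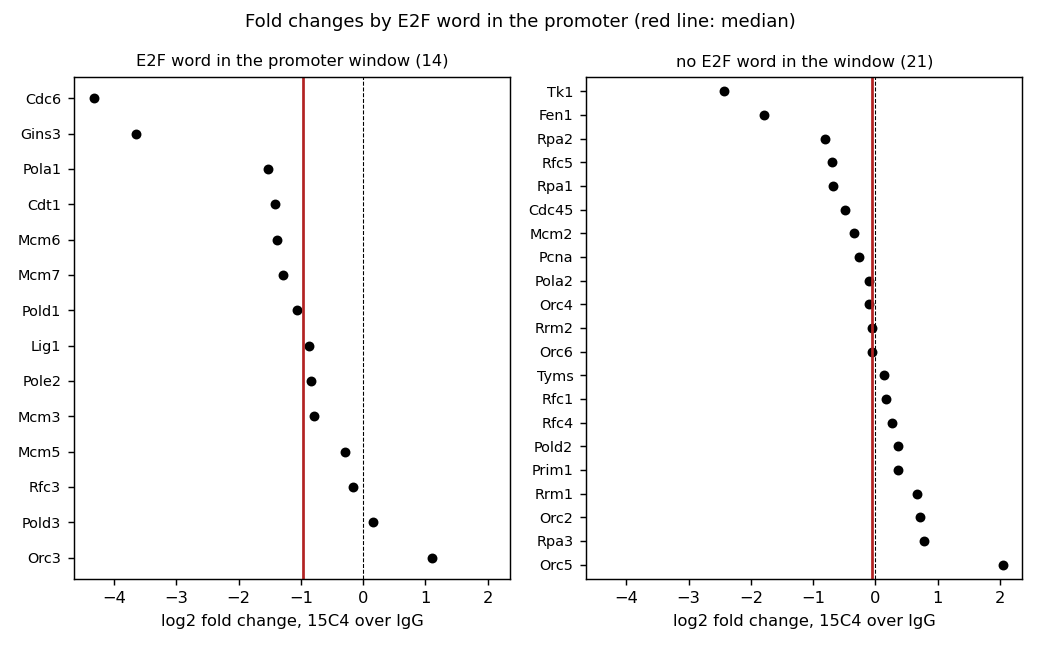
Log2 fold change (15C4 over IgG) of the tested replication genes with a RefSeq promoter window, split by an E2F word in that window, with the red line at the median. The 14 genes with a word have a median of -0.97 and the 21 without one a median of -0.05, and both panels span 0.

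The origin recognition complex marks origins and recruits the loading factors, and 3 of its 5 tested genes had log2 fold changes above 0, among them Orc5 and Orc3. Orc5 (GRCm38 chromosome 5, 22486485 to 22550429) was at 62.7, 80.8 and 197 CPM in 15C4 and at 39.8, 26.0 and 25.0 CPM in IgG. Its log2 fold change was 2.05 (SE 0.60, edgeR unadjusted p = 0.00847), and 1.29 without 15C4 3. The groups did not overlap, and 15C4 3 was the highest library. Orc3 was at 119, 214 and 420.3 CPM against 142, 133 and 111 CPM, a log2 fold change of 1.11 (SE 0.51), or 0.43 without 15C4 3. Orc2 had a log2 fold change of 0.73 (SE 0.51), or 0.15 without 15C4 3, and 29.8% of its exon bases are shared with Nif3l1 on the other strand. In Orc2 and Orc3 the groups overlapped and 15C4 3 was again the highest library.

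Orc4 and Orc6 were near 0 on the log2 scale. Orc4 was at 201, 307 and 151 CPM in 15C4 and at 201, 275 and 276 CPM in IgG, with a log2 fold change of -0.10 (SE 0.36), and Orc6 had a value of -0.05 (SE 0.58), ranging from 27.4 to 114 CPM. They share 5.98% and 6.93% of their exon bases with a gene on the other strand. Orc1, the largest subunit and the one whose level follows the cell cycle in mammalian cells, was too low to be tested. It had 1, 0 and 0 counts in 15C4 and 14, 148 and 1 in IgG, so that most of its counts were in IgG 2. The ratio of IgG over 15C4 was 211 (95% counting interval 37.4 to 8404, which covers counting error only). It was 30.6 without IgG 2, 376 without IgG 3 and 91.0 without 15C4 2, and without 15C4 1, which held the 1 count, Orc1 was at least 53.3-fold higher in IgG, against a floor of 3 counts over the group, which is also used for Cdc6 below.

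Both loading factors had log2 fold changes below 0. Cdc6, an ATPase that helps load MCM, was at 1.55, 0 and 0 CPM in 15C4 and at 12.2, 18.8 and 0.0857 CPM in IgG, with a log2 fold change of -4.33 (SE 2.36). Without 15C4 1 the remaining 15C4 libraries were at 0 counts, and Cdc6 was at least 80.1-fold higher in IgG. This bound covers counting error only and not the spread between libraries. With 15C4 1 kept, the ratio of IgG over 15C4 was 10.04 without IgG 2, 10.5 without 15C4 2 and 19.9 without 15C4 3. It was 22.6 without IgG 1 and 43.5 without IgG 3. IgG 3 thus stood with the 15C4 libraries for Cdc6 as for Orc1. Cdt1, the partner of CDC6, was at 16.1, 3.22 and 3.60 CPM against 25.7, 20.4 and 15.7 CPM, a log2 fold change of -1.41 (SE 0.92). The groups overlapped for Cdt1 through 15C4 1 and IgG 3 alone.

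All 6 subunits of the MCM helicase had log2 fold changes below 0, from -1.38 to -0.29. Mcm6 (chromosome 1, 128331590 to 128359664), whose promoter is shown above, was at 40.1, 39.3 and 17.8 CPM in 15C4 and at 94.9, 93.2 and 77.1 CPM in IgG. Its log2 fold change was -1.38 (SE 0.49, edgeR unadjusted p = 0.0207) and lay between -1.56 and -1.11 with 1 library left out. Mcm7 (chromosome 5, 138164583 to 138172422) was at 7.50, 7.97 and 10.6 CPM against 23.8, 25.7 and 19.4 CPM, a log2 fold change of -1.29 (SE 0.74). Both genes were separated between the groups, with means of 32.4 ± 12.6 against 88.4 ± 9.81 CPM for Mcm6 and 8.70 ± 1.69 against 23.0 ± 3.25 CPM for Mcm7 (SD, n = 3 each).

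The other 4 subunits overlapped between the groups. Mcm2 was at 83.0, 43.4 and 46.6 CPM in 15C4 and at 68.4, 104 and 57.8 CPM in IgG. Mcm3 was at 54.2, 43.9 and 10.3 CPM against 60.3, 81.6 and 51.1 CPM. The overlap of Mcm3 came from 15C4 1 and IgG 3 alone. Mcm4 was at 35.1, 20.7 and 10.01 CPM against 35.4, 43.1 and 17.2 CPM. Mcm5 was at 41.7, 17.3 and 7.51 CPM against 20.5, 44.3 and 18.4 CPM. For Mcm3, Mcm4 and Mcm5 the order within 15C4 was the same, with library 1 highest and library 3 lowest, and the fold change of Mcm5 was above 0 without IgG 2 (0.20 on the log2 scale) or 15C4 3 (0.11). The log2 fold changes were -0.34 for Mcm2 (SE 0.47), -0.78 for Mcm3 (SE 0.64), -0.49 for Mcm4 (SE 0.70) and -0.29 for Mcm5 (SE 0.78). The summed level of the 6 subunits was 262, 173 and 103 CPM against 303, 392 and 241 CPM.

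The helicase is a ring with 1 copy of each of the 6 subunits, so their levels were compared per length of merged exons in GENCODE M21. The mean over the 6 libraries ran from 3.58 CPM per kb for Mcm7 to 13.4 CPM per kb for Mcm3. In IgG 1, Mcm6 was at 20.3 and Mcm3 at 16.1 CPM per kb, and in 15C4 1 Mcm6 was at 8.60 and Mcm3 at 14.4 CPM per kb. Mcm6 was the subunit with the highest level per kb in IgG 1 and IgG 3 and was below Mcm3 in 15C4 1, 15C4 2 and IgG 2 (19.98 against 21.8 CPM per kb). In 15C4 3 it was above Mcm3, at 3.82 against 2.75 CPM per kb, so the order of the pair did not separate the groups. Mcm7 shares 7.25% of its exon bases with Ap4m1 on the other strand, and the sources used here do not give whether counting used strand.

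**Figure D3:**
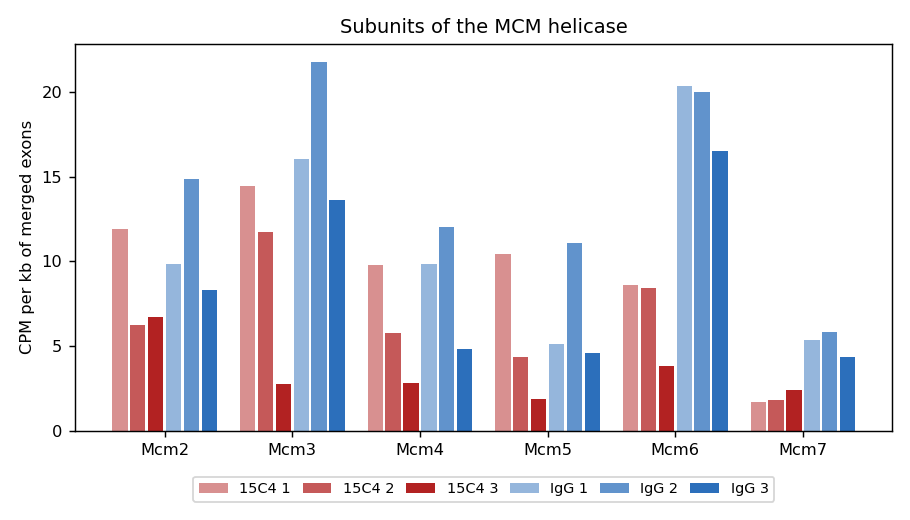
Level of the 6 MCM subunits per kb of merged exons (bars, CPM per kb) in each library, with 15C4 in red and IgG in blue and the library number by depth of colour. The 3 red bars of Mcm6 and of Mcm7 are lower than their blue bars, while the bars of the other subunits overlap between the groups.

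The helicase activators had wide spreads within 15C4. Gins3 was at 0, 2.504 and 0.313 CPM in 15C4 and at 17.6, 21.6 and 1.11 CPM in IgG, a log2 fold change of -3.65 (SE 1.85), and here too IgG 3 was near the 15C4 libraries. Gins1 lay between 9.77 and 19.5 CPM in IgG but at 31.4, 0.204 and 0 CPM in 15C4. Cdc45 spanned 0.626 to 33.4 CPM within 15C4. Both had their highest value of all libraries in 15C4 1. Their log2 fold changes of -0.61 (SE 1.80) and -0.49 (SE 1.31) became -6.74 and -2.90 without that library. Leaving out others moved them the opposite way, Gins1 to -0.003 without 15C4 3 and Cdc45 to 0.15 without IgG 1. Gins4 was at 23.4, 29.5 and 58.0 CPM against 39.2, 19.2 and 22.5 CPM, with a log2 fold change of 0.58 (SE 0.66). Gins2 had a log2 fold change of 0.28 (SE 0.91), and 67.3% of its exon bases are shared with Gse1 on the other strand, so its counts are uncertain.

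Pcna, the sliding clamp, was the steadiest of the 43 genes across libraries, with a highest value 1.80 times the lowest. It was at 154, 132 and 208 CPM in 15C4 and at 199, 202 and 236 CPM in IgG. The groups overlapped through 15C4 3, and the log2 fold change was -0.26 (SE 0.35). The 5 loader subunits, which open the clamp and place it on DNA, had log2 fold changes between -0.69 for Rfc5 and 0.26 for Rfc4, and all 5 overlapped between the groups. Of these, Rfc2, Rfc4 and Rfc5 share between 10.7% and 15.1% of their exon bases with a gene on the other strand.

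The polymerase genes held the fold change of the largest size among the tested replication genes. Pole (chromosome 5, 110286306 to 110337474), which encodes the catalytic subunit of the leading-strand polymerase epsilon, was at 2.14, 0.255 and 0 CPM in 15C4 and at 17.0, 20.2 and 18.6 CPM in IgG. In counts this is 18, 5 and 0 against 88, 195 and 217. The groups were far apart, with means of 0.799 ± 1.17 and 18.6 ± 1.61 CPM (SD, n = 3 each). The log2 fold change was -4.54 (SE 1.54, edgeR unadjusted p = 0.0172). With 1 library left out it lay between -6.72 (without 15C4 1) and -3.99 (without 15C4 3). The smaller epsilon subunit Pole2 overlapped between the groups, with 0, 19.2 and 4.54 CPM against 18.2, 28.3 and 0.686 CPM.

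Pola1 (chromosome X, 93304767 to 93632155), the catalytic subunit of the priming polymerase alpha, was at 38.0, 52.3 and 49.7 CPM in 15C4 and at 163, 219 and 55.8 CPM in IgG. The log2 fold change was -1.53 (SE 0.55, edgeR unadjusted p = 0.0224). The groups were separated only narrowly, since IgG 3 lay just above 15C4 2. The other subunits of the alpha and primase complex overlapped, with log2 fold changes of -0.11 for Pola2 (SE 0.80), 0.37 for Prim1 (SE 0.71) and -0.54 for Prim2 (SE 1.60). The delta subunits Pold1, Pold2 and Pold3 had values of -1.06 (SE 1.10), 0.36 (SE 0.85) and 0.17 (SE 0.62).

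The enzymes of nucleotide supply split. Tk1 (chromosome 11, 117815526 to 117826092), the thymidine kinase of the salvage pathway, was at 11.8, 5.47 and 2.03 CPM in 15C4 and at 53.7, 26.0 and 26.1 CPM in IgG, a log2 fold change of -2.42 (SE 0.85, edgeR unadjusted p = 0.0204). Its groups were separated, and the value lay between -3.08 and -1.98 with 1 library left out. Rrm1, the large subunit of ribonucleotide reductase, was at 79.3, 80.7 and 341 CPM against 141, 77.6 and 132 CPM. Rrm2, the small subunit, was at 43.4, 2.20 and 191 CPM against 129.8, 79.6 and 64.9 CPM. For both, and for the thymidylate synthase gene Tyms, 15C4 3 held the highest value of the 6 libraries. Without it their log2 fold changes went from 0.66 to -0.52 for Rrm1, from -0.05 to -2.03 for Rrm2 and from 0.15 to -0.59 for Tyms. With all 6 libraries, the value of Rrm2 also depended on the method. It was 0.01 in DESeq2, -2.52 in limma-voom and -1.62 in edgeR with the replicate number as a further term. Tyms also has a processed copy, Tyms-ps, that is counted separately in these files.

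On the lagging strand, Fen1 and Lig1 were both separated downwards. Fen1, which cuts the flaps of Okazaki fragments, was at 13.0, 2.71 and 1.56 CPM in 15C4 and at 19.7, 25.2 and 15.3 CPM in IgG, a log2 fold change of -1.79 (SE 1.01). Lig1, which seals the nicks, was at 26.2, 19.1 and 38.8 CPM against 50.4, 60.9 and 54.2 CPM, a log2 fold change of -0.87 (SE 0.54). The sum of the pair was 39.2, 21.8 and 40.4 CPM against 70.1, 86.1 and 69.6 CPM. Fen1 shares 5.37% of its exon bases with Tmem258 on the other strand.

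The RPA subunits, which coat single-stranded DNA as 1 trimer, differed in direction. Rpa1 was at 65.9, 65.9 and 85.9 CPM in 15C4 and at 107, 117 and 152 CPM in IgG, with separated groups and a log2 fold change of -0.69 (SE 0.39). Rpa3 was at 115, 143 and 199.6 CPM against 133, 111 and 46.7 CPM, with overlapping groups and a log2 fold change of 0.78 (SE 0.49). Rpa2 had a value of -0.81 (SE 0.98) and ranged from 1.84 to 25.9 CPM, and its lowest values were in 15C4 2 and 15C4 3. For Rpa3 the lowest library was IgG 3.

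**Figure D4:**
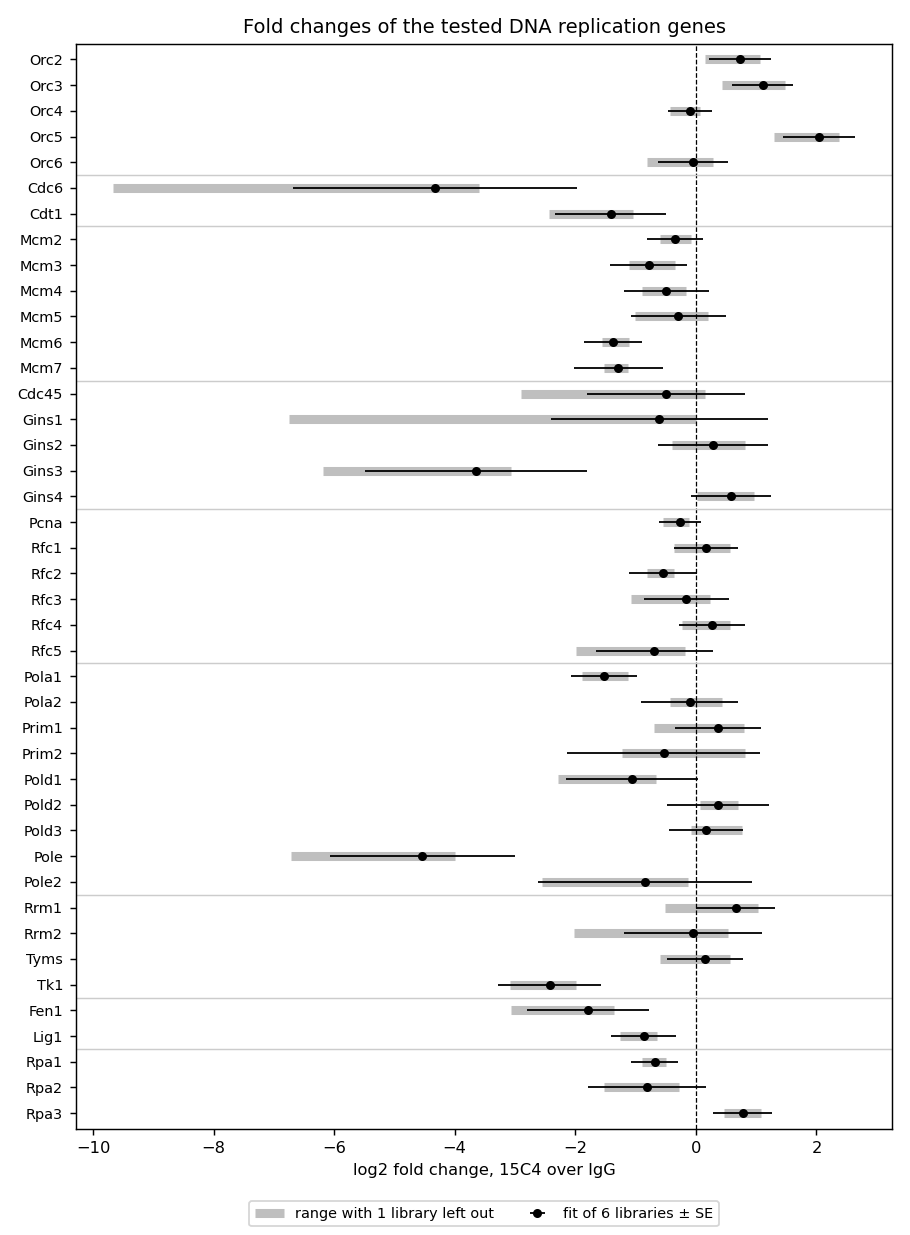
Log2 fold change (15C4 over IgG) of the 42 tested replication genes with its SE (points and black lines) and the range of the estimate with 1 library left out (grey bars). The grey bars of Mcm6, Mcm7, Pola1, Pole, Tk1, Fen1, Lig1 and Rpa1 stay below 0 and that of Orc5 above 0, while those of Rrm1, Rrm2, Tyms and Prim1 cross it. The left end of the Cdc6 bar comes from a fit against 15C4 libraries at 0 counts and is no bound.

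By role, the MCM, loading, flap and ligation groups had all tested members below 0, and the origin recognition group had 3 of 5 above. The median log2 fold change was -0.64 for the 6 MCM subunits, -0.49 for helicase activation, -0.21 for clamp and loader, -0.54 for the 9 polymerase and primase genes, 0.05 for nucleotide supply, -0.69 for RPA and 0.73 for origin recognition. Among the summed levels, the groups were separated only for flap removal and ligation. The summed origin recognition level was 501, 836 and 1005 CPM against 549.7, 589 and 581 CPM.

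**Figure D5:**
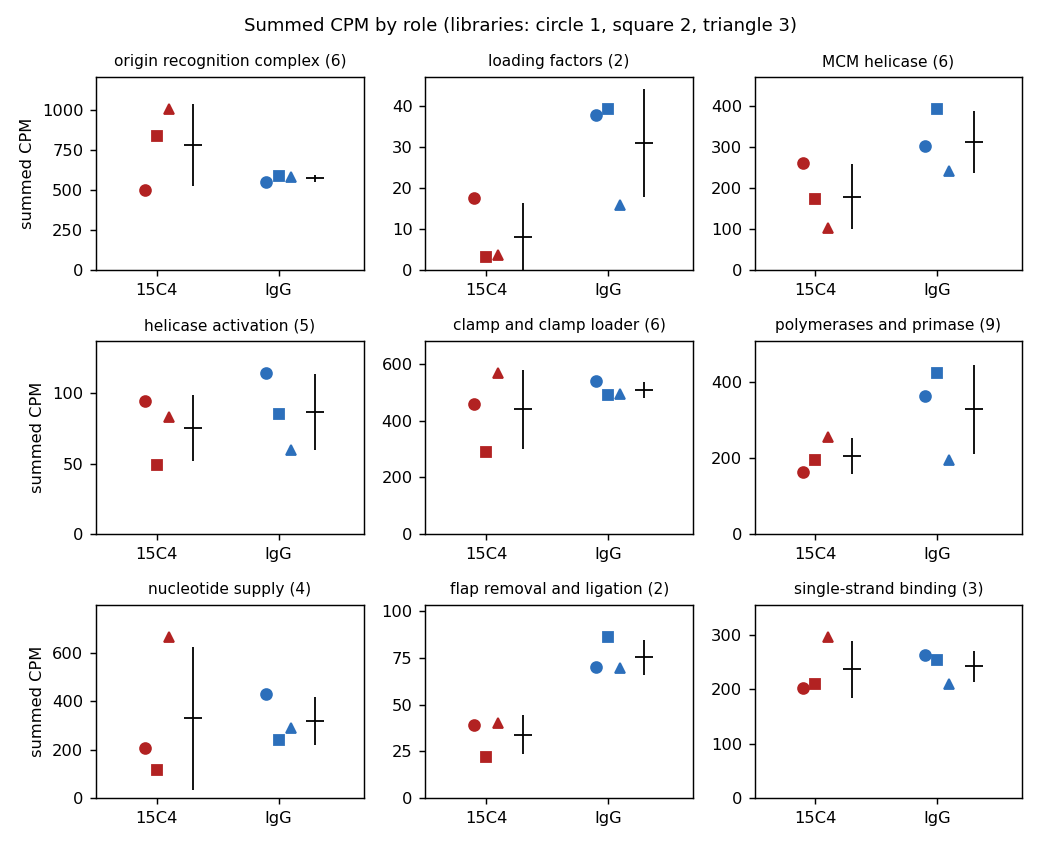
Summed CPM of the members of each role group (number of genes in brackets) in each library, with the mean and SD of 3 libraries as a black line beside the points. Only the flap removal and ligation group, at 21.8 to 40.4 CPM in 15C4 and 69.6 to 86.1 CPM in IgG, has no overlap between 15C4 and IgG.

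The authors' deposited table was read for the same genes. In the authors' deposited table, 5 of the 43 genes have an adjusted p under 0.05, against 3.59% of the 14112 genes with a value there. These are Pole (0.000449), Orc1 (0.00244), Tk1 (0.00359) and Mcm6 (0.0377), with a log2 fold change of IgG over 15C4 above 0, and Orc5 (0.00503), with one below 0, all from the authors' deposited table. DESeq2 run here on the 6 libraries gave adjusted p-values of 0.156 for Pole, 0.487 for Tk1, 0.188 for Orc5 and 0.629 for Mcm6. In the authors' deposited table the mean level of Mcm6 is 624, while its 6 normalised values average 522, and only 277 of 8310 genes with a mean of at least 100 matched within 1%. The sources used here do not give which libraries entered the deposited fit.

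The rest of the replication and cell cycle pathway was read from a list of 96 further genes, of which 90 were tested. Of these, 35 had a log2 fold change above 0 and 55 below, with a median of -0.33. Over all tested genes 49.3% were below 0, with a median of 0.01. In the edgeR test 0 of the 90 passed at an adjusted p under 0.05. At an unadjusted p under 0.05 there were 4, all lower in 15C4 (1.33% of all tested genes). Among the 10 tested genes of origin firing, 6 were below 0, led by Ticrr (-3.75, SE 1.76), a factor that brings CDC45 to MCM, and Mcmbp (-1.08, SE 0.55), and on the other side Donson (1.27, SE 0.67) and the kinase Cdc7 (0.53, SE 0.74). Among 20 fork and repair genes, 10 were below 0. Top2a, which untangles replicated DNA, was at 138, 71.0 and 178 CPM against 591, 283 and 167 CPM (-1.33, SE 0.55), with its highest value in IgG 1, where T and NK cell markers also had their highest sum, and their part in the result was not tested. Atad5, which unloads PCNA, had a log2 fold change of -1.94 (SE 1.23), and Top1 (0.48, SE 0.31) and Pole3 (0.78, SE 0.54) were above 0.

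The remaining lists had the following leading genes. Of 7 chromatin assembly genes 4 were below 0, with the histone chaperones Nasp (-1.06, SE 0.51) and Asf1b (-2.15, SE 1.47), against Asf1a (0.34, SE 0.43) and Chaf1a (0.55, SE 1.02). Of 9 further nucleotide genes 6 were below 0, with Dut (-0.99, SE 0.61) and Dck (-2.29, SE 1.37), against Dctd (0.41, SE 0.67) and Dtymk (0.43, SE 0.60). Of 28 E2F and G1 to S phase genes 18 were below 0, with the cyclin gene Ccnd1 (-0.77, SE 0.38), against Cdk2 (0.64, SE 0.33) and Cdk4 (0.38, SE 0.38). Cdkn1a, which encodes the inhibitor p21 that restrains S phase entry, was also lower in 15C4, at 58.2, 50.7 and 61.8 CPM against 126, 105 and 224 CPM (-1.32, SE 0.44). Its groups were separated in the same direction as those of Mcm6 and Tk1. Of 16 mitosis genes 11 were below 0, with Aurkb (-5.71, SE 1.15) and Nusap1 (-3.63, SE 1.01), against Ccnb2 (1.41, SE 0.62) and Cenpa (0.67, SE 0.88).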

How the data were processed

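RNA was sequenced from cells labelled as sorted tumour endothelium, 3 libraries per group. The authors deposited raw counts per gene symbol. The submitters' processing notes name featureCounts, STAR 2.5b, DESeq2 and fastp, and the builds mm9 and mm10, with no role for either. Annotation and strandedness: not given in the sources used here. A table the authors deposited for the series holds the same counts (equal for all 24394 symbols spelled alike), normalised values and a base mean that is not the mean of these 6 (each a score here, per the file headers counts scaled per library), and the authors' log2 fold change, p-value and adjusted p-value.

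Counts were tested here with edgeR 4.0.16 (R 4.3.3; TMM factors, filterByExpr with a minimum count of 10 and total of 15, quasi-likelihood test, treatment as the only term). P-values were adjusted by Benjamini-Hochberg over all tested genes with a threshold of 0.05. The SE is the fold change over the root of the F statistic. CPM are of the library total, without TMM factors. DESeq2 1.42.0 and limma 3.58.1 were alternatives. Promoter words were searched in RefSeq windows, and gene spans and exon lengths are from GENCODE M21 on GRCm38.

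The genes and lists were chosen with earlier results of these data known. Values for every library are given by a rule: the 12 smallest unadjusted p, Mcm2 to Mcm7, Pcna, genes at 0 in 2 or more libraries or left out by the filter, and the gene of highest mean CPM in each role group. Gins1, Pole2 and Rrm2 were added after their values were seen. From the other pathway lists, the 2 genes per direction with the smallest p are named.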

Additional observations from a re-analysis of the deposited data

How the results depend on the processing

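Of 587 alternative fold changes of single replication genes, 579 kept their direction or crossed 0 by a shift of less than 1 SE. The other 8 changed sign by a larger shift, all of them with 15C4 3 left out, alone or together with IgG 3. The 579 thus include changes of sign. Only 26 of the 42 tested genes kept their sign in every alternative that gave a value. The count of all called genes was 0 in edgeR and became 1 without a count filter and 26 with DESeq2. No replication gene was called in any alternative. The count of replication genes with all 15C4 libraries below all IgG libraries was 8 (6.64% of all genes), and between 9 and 17 with 1 library left out (10.7% to 17.8% of all genes), which has fewer libraries to overlap. It was 19 (19.0%) with 15C4 3 and IgG 3 both left out, an alternative chosen after seeing the data. With the replicate number as a block, edgeR called 0 genes (207 at an unadjusted p under 0.05, against 288 without it), and the median of the replication genes was -0.52 against -0.15 for all genes, of which 58.2% were below 0. With limma-voom these were -0.51, -0.14 and 57.7%. The numbers were not treated as pairs, since the same-numbered libraries correlated at -0.036, 0.063 and 0.1 in their deviations from the group means. A count of 0 allows up to 0.153 to 0.469 CPM in the 15C4 libraries, so lower levels of the genes at 0 were not detectable at this depth.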
